A study of Homo sapiens with 4 samples.

Results

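Effects of 2 treatments can be added on a linear or a log scale. The reference chosen here for giving both was the sum of their separate effects on the log scale. The departure from that sum was measured here for CCCP and DHA in OMM2.3, an established uveal melanoma cell line. RNA was sequenced in 4 libraries, 1 for each cell of a 2 by 2 design: cells given CCCP and DHA together (the combination), cells given CCCP alone, cells given DHA alone, and control cells. All were grown with 10% heat-inactivated fetal bovine serum and antibiotics. CCCP is carbonyl cyanide m-chlorophenyl hydrazone. DHA is not spelled out in the labels. The sources used here give no dose, no time and no vehicle for the control cells. Levels are in FPKM, fragments per exon kilobase after scaling for sequencing depth. A gene entered when its mean over the 4 libraries was at least 5 FPKM, which kept 6760 of 58735 genes. For each of them the departure was the log2 ratio of combination to control, minus the log2 ratio of CCCP to control, minus the log2 ratio of DHA to control, each on FPKM + 0.5.

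CCCP carries protons across the inner mitochondrial membrane, so that respiration runs without making ATP. Mitochondrial stress of this kind is known to engage the integrated stress response, in which kinases phosphorylate the initiation factor eIF2 alpha, general translation slows, and the mRNA of the transcription factor ATF4 is translated more. ATF4 and its partner CHOP then activate genes for amino acid uptake and synthesis, tRNA charging and, when stress lasts, cell death. Proliferating tumour cells also express periodic genes for DNA replication and mitosis, whose promoters are known for a CCAAT box and a cell cycle genes homology region (CHR).

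Each group was a single library, so no replicate error could be measured, the design had 0 residual degrees of freedom, and no departure was tested. A gene was counted as above or below the sum when it departed by at least 2-fold, a departure of at least 1 or at most -1 on the log2 scale. The level expected in the combination is the CCCP level times the DHA level divided by the control level. Folds of observed to expected are given with 95% exact intervals from whole reads recovered from the deposited values, and these cover counting error only. Reads summed over genes numbered 16900411 in the combination, 16942245 with CCCP, 17347602 with DHA and 18937286 in control. Melanocyte lineage genes were mostly absent: 16 of 22 never reached 1 FPKM, and 6 of these, among them TYR, PAX3 and KIT, had 0 reads. Another 5 of the 22 reached a mean of 5 FPKM: GPNMB, GPR143, RAB38, RAB27A and MITF. GPNMB had 23.3 FPKM in the combination, 32.8 with CCCP, 27.5 with DHA and 34.9 in control. MITF, the lineage regulator, had 5.01 FPKM in the combination, 8.89 with CCCP, 7.35 with DHA and 8.81 in control. No leukocyte or endothelial marker reached a mean of 5 FPKM, while 3 of 12 fibroblast and 2 of 10 epithelial markers did. The fibroblast markers summed to 31.5 FPKM in the combination, 49.9 with CCCP, 47.7 with DHA and 73.3 in control, and the epithelial ones to 274, 305, 351 and 382 FPKM in that order. Their part in the departures was not tested.

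Most genes lay near the sum. The median departure was -0.03, and 3828 genes (56.6%) lay within 0.25 and 5652 (83.6%) within 0.5 of 0. The middle 50% of genes ran from -0.24 to 0.18, and the 1st and 99th percentiles were -1.18 and 0.87, so the lower tail was the longer. Above the sum by at least 2-fold were 41 genes (0.607% of those measured), and below it 128 genes (1.89%). Of these, 29 and 95 were protein-coding. The counting interval left out a fold of 1 for all 124 of them, and for 3737 of all 6402 protein-coding genes. Selecting on a 2-fold departure favours such intervals, so the 124 are a description only. With the libraries rescaled to equal totals the counts were 59 above and 94 below, and with the trend over exon length removed they were 57 and 102.

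**Figure D1:**
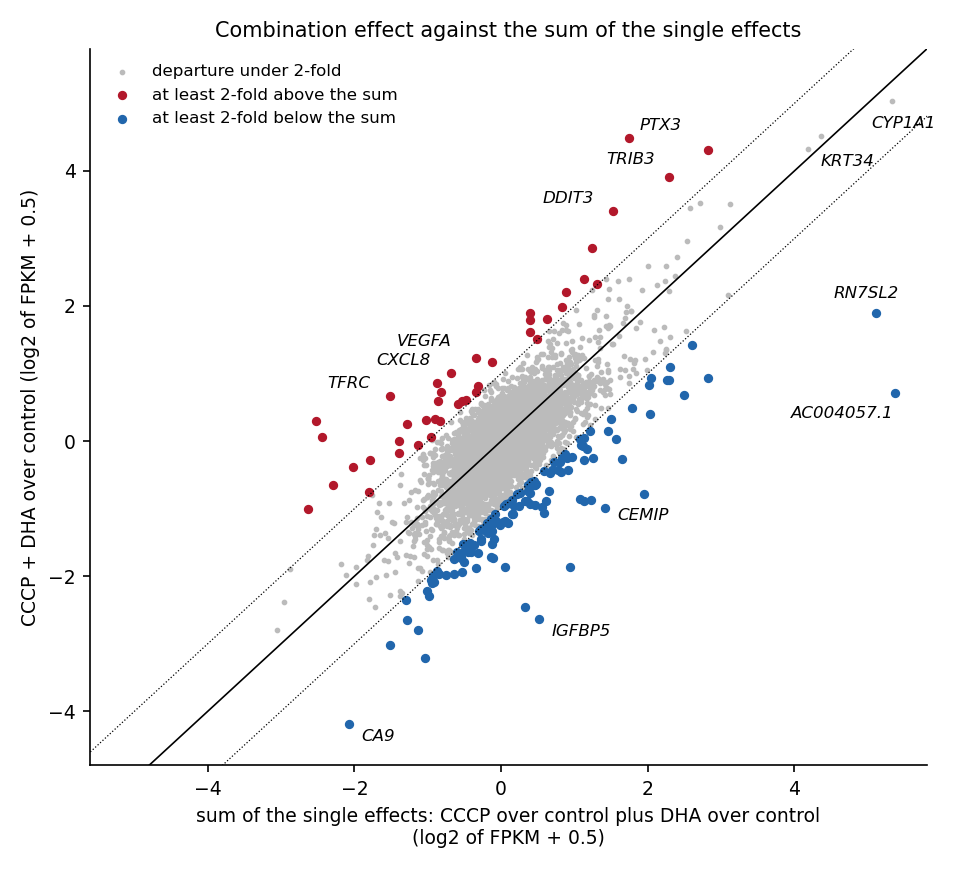
Each point is 1 of 6760 genes. The x axis gives the sum of the CCCP and DHA effects against control and the y axis the effect of the combination against control, both as log2 ratios of FPKM + 0.5. The solid line marks equality and the dotted lines a 2-fold departure. Red points are the 41 genes above the sum and blue points the 128 below it. Most points lie between the dotted lines, and CYP1A1 and KRT34 lie near equality at large effects.

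The genes nearest the threshold showed no gap there. Just inside it above were SBDSP1 at 1.01 and LSG1 at 1.01, and just outside it were MIR621 and PPP1R15A, both at 1.0 when rounded. Just inside it below were LINC02009 and SAC3D1, both at -1.0, and just outside it were the cell cycle genes UBE2C and CENPW, which also round to -1.0. The minimum of 5 FPKM was set on the mean, so a gene could enter through 1 library. At 5 FPKM or more in all 4 libraries were 20 of the 41 genes above the sum, 81 of the 128 below it, and 5944 of all 6760. Only PTX3 and LURAP1L among the 41 reached 5 FPKM in the combination alone.

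Among the 41 genes above the sum, 23 were lower with CCCP alone than in control (log2 ratio of -0.5 or less). Among the 128 below it, 60 were near control with either compound alone (within 0.5), a smaller share than the 5836 of all 6760 genes. Another 46 of the 128 were higher than control with CCCP alone (0.5 or more). Over all genes, the CCCP effect was within 0.5 for 88.8%. The combination was the highest of the 4 libraries for 30 of the 41, against 2424 of all 6760 genes. It was the lowest for 106 of the 128, against 2364 of all 6760. With both singles near control taken as within 0.3, the 60 genes became 32, against 4300 of all genes. The departure is computed from all 4 levels, those of the combination, CCCP and control among them. Selecting on it therefore favours CCCP levels away from control and combination levels at either extreme. The counts are a description only.

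For some genes the CCCP effect had opposite signs without and with DHA. With CCCP, 11 genes were lower by 0.5 or more in cells without DHA and higher by 0.5 or more in cells with DHA, and 15 genes showed the opposite. The 11 included TFRC, CXCL8, VEGFA, NRP1, HMOX1, KLF2 and EIF5. The 15 included IGFBP5, TM4SF1, the chemokine scavenging receptor gene ACKR3, the interferon-inducible IFI6 and the cyclin-dependent kinase inhibitor gene CDKN2D. For DHA, 4 genes were lower without CCCP and higher with it, and 9 were the opposite. Only HMOX1 and the pseudogene TCEA1P2 among those 4 had 100 or more reads over the 4 libraries.

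**Figure D2:**
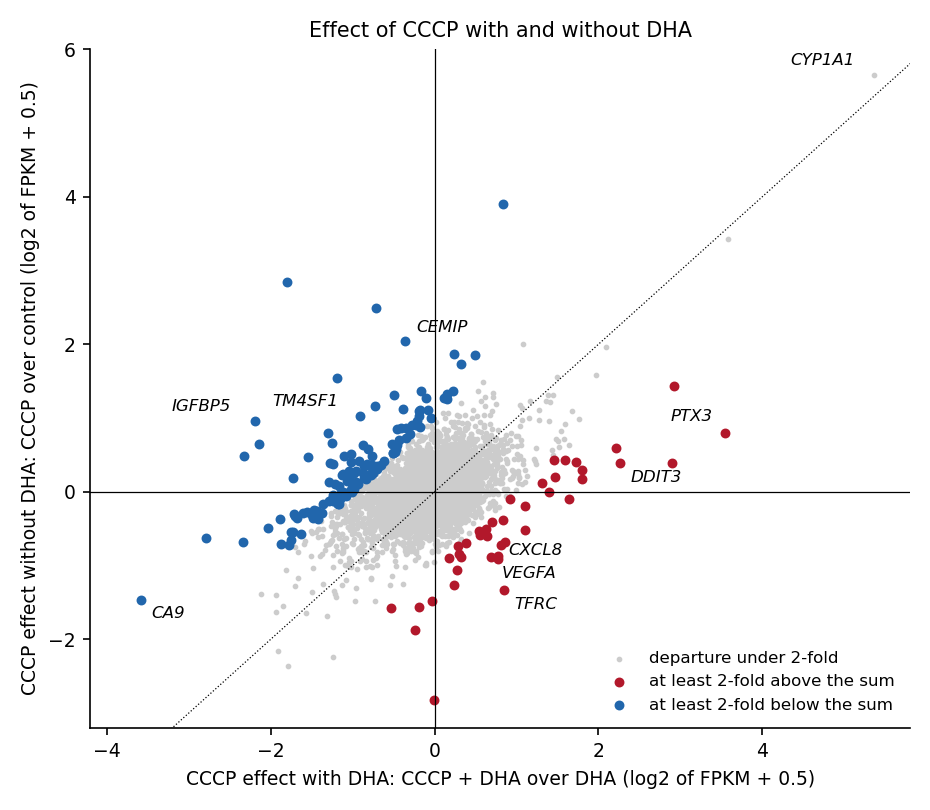
The x axis gives the effect of CCCP in the presence of DHA (combination over DHA) and the y axis its effect without DHA (CCCP over control), as log2 ratios of FPKM + 0.5. Each point is a gene, the dotted line marks equal effects, red points are above the sum of single effects by at least 2-fold and blue points below it. Red points at the lower right (TFRC, CXCL8, VEGFA) and blue points at the upper left (IGFBP5, TM4SF1) had CCCP effects of opposite sign.

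Stress-response genes stood above the sum. Of 53 genes on lists of the integrated stress response, 5 were above it by at least 2-fold (9.43%, against 0.607% of all genes), 0 were below, and 49 had a departure above 0, against 47.0% of all genes. The 5 included VEGFA, from the list of secreted factors, and DDIT4, which are both also on the hypoxia list. The median departure of the 53 was 0.48. In these bulk libraries, a change in the make-up of the cells and a change of RNA per cell cannot be told apart, and FPKM does not show the total RNA of a cell.

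DDIT3, which encodes CHOP, lay at 63 FPKM in the combination, 7.37 with CCCP, 12.7 with DHA and 5.5 in control. It was more than 2-fold above control with DHA alone and slightly above it with CCCP alone, while the combination stood far above both. The product of the single effects would have given 17 FPKM, and the observed level was 3.7-fold (2.83 to 4.83) that, a departure of 1.87. TRIB3, a pseudokinase that restrains ATF4 and AKT, had 77.4 FPKM in the combination, 7.27 with CCCP, 16.3 with DHA and 4.67 in control, 3.06-fold (2.59 to 3.6) the expected level. SESN2, a leucine sensor that inhibits mTORC1, had 28.3, 4.0, 7.78 and 3.48 FPKM in the same order, 3.16-fold (2.55 to 3.91) the expected level. In all 3 genes DHA alone stood above control by at least 0.5 on the log2 scale and the combination was highest. With CCCP alone DDIT3 and SESN2 were within 0.5 of control, while TRIB3 was above it by 0.59.

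DDIT4, another inhibitor of mTORC1, reached its excess another way. It had 49.7 FPKM in the combination and 50.7 with DHA, against 11.5 with CCCP and 32.9 in control. It was lower with CCCP alone, while CCCP on top of DHA made a log2 difference of -0.03, so the combination was 2.8-fold (2.46 to 3.2) the expected 17.7 FPKM. With single effects added on the linear FPKM scale its departure was 0.75, under 2-fold. PPP1R15A, whose product GADD34 removes the phosphate from eIF2 alpha, was just under the threshold, with 131 FPKM in the combination, 42.9 with CCCP, 41.7 with DHA and 27.4 in control. All 12 genes of the list of ATF4 and CHOP factors and brakes had departures above 0, with a median of 0.76.

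ATF4 mRNA itself departed little, at 0.28. It had 342 FPKM in the combination, 129 with CCCP, 229 with DHA and 104 in control, 1.21-fold (1.16 to 1.27) the expected level. NUPR1, a stress-induced chromatin protein, was similar at 0.28, and CEBPB, a binding partner of ATF4, was at 0.04. ATF5, a related factor tied to mitochondrial proteostasis, was at 0.87. Departures were thus smaller for the mRNA of ATF4 than for those of DDIT3 and TRIB3, a description over single libraries.

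Genes of amino acid supply were mostly above the sum, and their departures overlapped those of the ATF4 and CHOP list. The 6 amino acid transporter genes that passed the filter had departures from 0.32 (SLC3A2) to 0.81 (SLC7A11), with a median of 0.51. SLC7A11, the cystine importer, had 39.8 FPKM in the combination, 5.18 with CCCP, 13.7 with DHA and 3.01 in control, 1.69-fold (1.5 to 1.91) the expected 23.5. Of 20 cytosolic aminoacyl-tRNA synthetase genes, which charge tRNAs with amino acids, 19 had a departure above 0, and the median was 0.37. WARS, for tryptophan, was the highest of them at 0.97, with 48.8 FPKM in the combination, 9.5 with CCCP, 23 with DHA and 8.82 in control.

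Serine and one-carbon enzymes had a median of 0.25 over 13 genes. On the linear scale it was 0.47, above the 0.41 of the synthetases. PSAT1, a serine synthesis enzyme, had 209 FPKM in the combination, 29.3 with CCCP, 144 with DHA and 22.7 in control. Its departure was 0.18, so the combination was almost the product of a large DHA effect and a small CCCP effect. CTH, which makes cysteine, was at 0.87, and the mitochondrial folate enzyme genes MTHFD1L and MTHFD2 were at 0.80 and 0.78. SHMT1, the cytosolic serine hydroxymethyltransferase, was at -0.32.

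**Figure D3:**
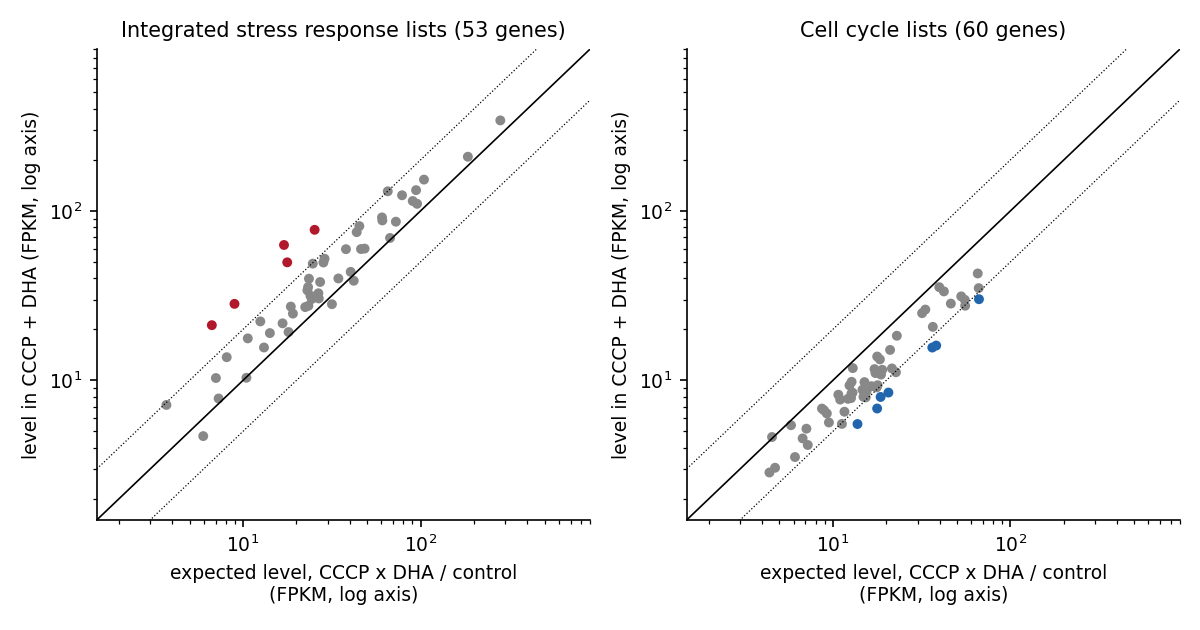
Observed level in the combination (y axis, FPKM) against the level expected from the single effects (x axis, FPKM), both on log axes, for 53 genes of the integrated stress response lists (left) and 60 genes of the cell cycle lists (right). The solid line marks equality and the dotted lines a 2-fold departure, with red above and blue below. On the left 49 genes have a departure above 0, and on the right 1 does.

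Chaperones of the endoplasmic reticulum split. Of 20 genes, 10 lay on each side of 0, with a median of 0.06, and 0 departed by 2-fold. HYOU1 (0.96), the transcription factor gene XBP1 (0.91) and HSPA5 (0.88), which encodes BiP, were above the sum, and the calcium-binding lectin gene CALR (-0.77) and the disulfide isomerase gene PDIA4 (-0.75) were below it. HSPA5 had 199 FPKM in the combination, 139.8 with CCCP, 214 with DHA and 279 in control, so its level in the combination lay between those of the single treatments. CALR had 116 FPKM in the combination, 284 with CCCP, 302 with DHA and 430 in control, and its combination level was under all others. Of 15 mitochondrial chaperone and protease genes, HSPA9, which encodes mortalin of the import motor, was farthest from 0 at 0.93, and the median was 0.25.

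Iron handling held the highest protein-coding departure after PTX3. TFRC at chr3:196027183-196082189 (GRCh38), which encodes the transferrin receptor for iron uptake, had 50.9 FPKM in the combination, 12.4 with CCCP, 28 with DHA and 31.9 in control. The CCCP library was lower than the DHA and control libraries, and the combination was the highest of the 4 libraries. The expected level was 10.9 FPKM and the observed level 4.69-fold (4.37 to 5.02) that. HMOX1, the inducible heme oxygenase, had 9.68 FPKM in the combination, 4.68 with CCCP, 5.31 with DHA and 8.08 in control. HMOX1 was under control with each compound alone, and the combination was above control, 3.15-fold (2.46 to 4.03) the expected 3.08 FPKM. FTH1, the ferritin heavy chain that stores iron, was at 0.80, and ALAD, a heme synthesis enzyme, at -0.69. The 15 iron and heme genes had a median of -0.02, close to that of all genes.

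**Figure D4:**
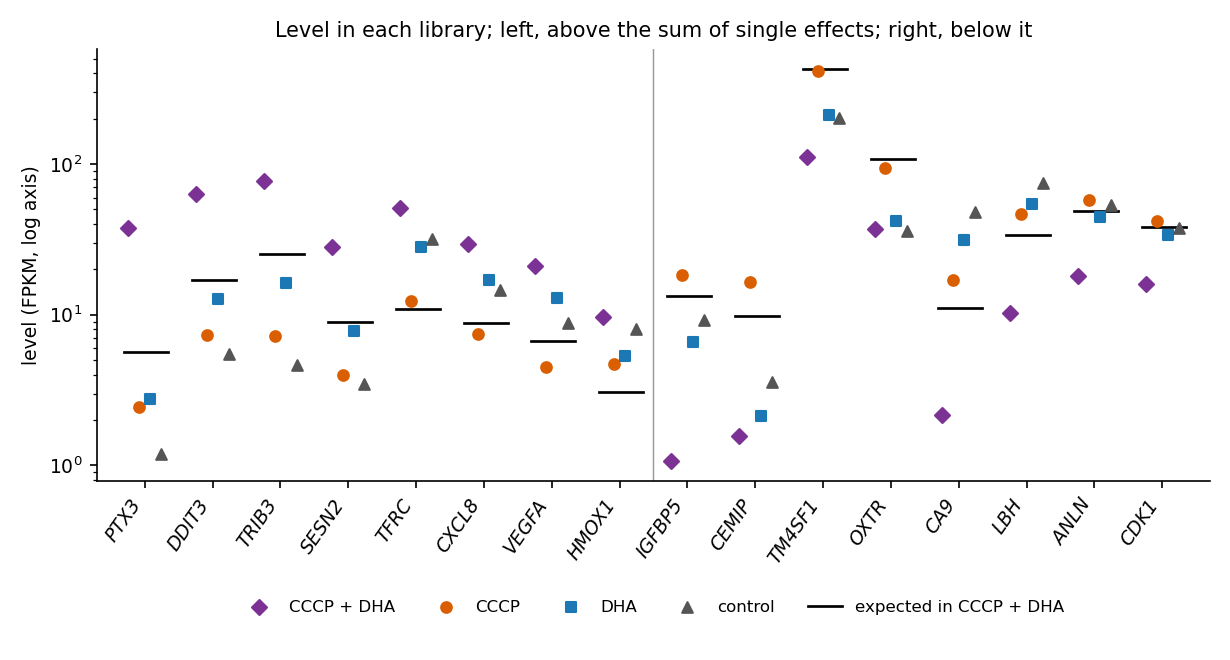
Level in each library (FPKM, log axis) of 8 genes above the sum of single effects (left of the grey line) and 8 below it (right). Diamonds are the combination, circles CCCP, squares DHA and triangles control, and each bar is the level expected in the combination from the single effects. For PTX3, DDIT3, TRIB3, SESN2, TFRC, CXCL8, VEGFA and HMOX1 the diamond is the highest symbol, and for the 8 genes on the right it lies under the bar.

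Secreted factors and growth signals came next. PTX3 at chr3:157436789-157443628, a pattern-recognition molecule of innate immunity, had the highest departure of all genes with at least 100 reads, 2.75. It had 37.4 FPKM in the combination, 2.44 with CCCP, 2.75 with DHA and 1.19 in control, from 1252, 79, 92 and 45 reads. Either compound alone left it low, and the combination was 6.64-fold (4.23 to 10.3) the expected 5.63 FPKM. CXCL8, the neutrophil chemokine interleukin-8, had 29.7 FPKM in the combination, 7.48 with CCCP, 17.1 with DHA and 14.5 in control, 3.37-fold (2.84 to 4.01) the expected level. The log2 ratio of CXCL8 with CCCP was -0.91 without DHA and 0.78 with it.

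Only 7 genes of the cytokine and NF-kB list passed the filter, of which PTX3 and CXCL8 were above the sum by 2-fold (28.6%, against 0.607% of all genes) and 0 below. PTX3 passed it through the combination alone, where it is high, so this count gives no support for the list. The others ran from -0.51 for NFKBIA, which encodes the inhibitor of NF-kB, to 0.62 for the cytokine gene IL11. VEGFA, the main angiogenic growth factor, had 21.2 FPKM in the combination, 4.53 with CCCP, 12.9 with DHA and 8.75 in control, 3.17-fold (2.92 to 3.45) the expected 6.67. NRP1, a co-receptor for VEGFA and semaphorins, had 12.9, 4.52, 6.88 and 7.57 FPKM in that order, 3.14-fold (2.82 to 3.49) the expected level. Both genes were lowest with CCCP alone and highest in the combination.

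Feedback genes of ERK signalling leaned the same way, with 12 of 13 departures above 0 and a median of 0.40. DUSP5, a nuclear phosphatase that acts on ERK, was alone past 2-fold (7.69% of the 13, against 0.607% of all genes above the sum). Its departure was 1.19, with 32.7 FPKM in the combination, 9.82 with CCCP, 12.9 with DHA and 8.98 in control. IER3 and PHLDA1, both induced by growth factors, were at 0.98 and 0.81. Among 16 immediate early genes the median was 0.05. The transcription factor genes KLF4 (1.22) and KLF2 (1.14) were past 2-fold (12.5% of the 16, against 0.607% of all genes above the sum). KLF4 had 10 FPKM in the combination, 2.14 with CCCP, 5.41 with DHA and 2.95 in control.

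Genes above the sum with other roles included IDH1, the cytosolic isocitrate dehydrogenase that yields NADPH. IDH1 had 38.7 FPKM in the combination, against 12.5 with CCCP, 10.7 with DHA and 10.1 in control, 2.9-fold (2.58 to 3.27) the expected level. Its mitochondrial counterpart IDH2 departed the other way (-1.14), with 9.66 FPKM in the combination, 24.8 with CCCP, 17.1 with DHA and 19.3 in control. Neither compound alone moved either gene by 0.5 on the log2 scale. MAP1LC3B, which encodes the autophagosome protein LC3B, had 63.5 FPKM in the combination, 18.1 with CCCP, 23.8 with DHA and 18 in control, 2.66-fold (2.45 to 2.89) the expected level. It was the only one of 24 autophagy and lysosome genes past 2-fold (4.17%, against 0.607% of all genes above the sum), and the list's median was 0.08. Among the mitophagy genes, whose products mark damaged mitochondria for removal, SQSTM1 was at 0.77 and FUNDC1 at -0.95, with a median of 0.02 over 19 genes.

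NCOA5, a nuclear receptor coregulator gene, had 7.52 FPKM in the combination, 2.36 with CCCP, 8.98 with DHA and 9.97 in control, 3.54-fold (2.79 to 4.5) the expected level. NCOA5 was lowest with CCCP alone, and the combination was under control by less. LURAP1L had 39.5 FPKM in the combination, 4.94 with CCCP, 4.79 with DHA and 1.52 in control. It was above control with either compound alone, and the combination was 2.53-fold (1.79 to 3.54) the product of those differences. EPAS1, which encodes the hypoxia-inducible factor HIF-2 alpha, had 82.9, 17.6, 29.6 and 15.3 FPKM in the same order of libraries, 2.43-fold (2.27 to 2.61) the expected level. SLFN5 and the plasma membrane calcium pump gene ATP2B1 were at 1.32 and 1.3, with single effects near control. EIF5, the GTPase-activating factor of translation initiation, was at 1.07, and just under the threshold with the exon-length trend removed (0.998) or on the linear scale (0.991).

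Below the sum, IGFBP5 and CEMIP were higher with CCCP alone and scarce in the combination. IGFBP5 at chr2:216672105-216695525, whose product binds insulin-like growth factors outside the cell, had 1.06 FPKM in the combination, 18.4 with CCCP, 6.62 with DHA and 9.2 in control. The expected level was 13.2 FPKM, 12.5-fold (10.1 to 15.5) the observed one, a departure of -3.15. The log2 ratio of IGFBP5 with CCCP was 0.96 without DHA and -2.19 with it. The other 7 genes of the list of IGF-binding proteins and receptors lay between -0.62 (IGFBP6) and 0.68 (IGF2R).

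CEMIP, which takes part in hyaluronan breakdown, had 1.56 FPKM in the combination, 16.4 with CCCP, 2.13 with DHA and 3.59 in control. CYP24A1, the vitamin D 24-hydroxylase, had 44.1 FPKM in the combination, 179 with CCCP, 35.1 with DHA and 53.6 in control. In both genes the CCCP library stood alone at the top, and the expected levels were 6.27-fold (5.08 to 7.73) and 2.67-fold (2.5 to 2.84) the observed ones. TM4SF1, a tetraspanin-like surface protein, had 112 FPKM in the combination, 413 with CCCP, 210.4 with DHA and 202 in control, and 3.84-fold (3.71 to 3.98) as much was expected. The oxytocin receptor gene OXTR had 37.1 FPKM in the combination and 94.3 with CCCP, against 41.7 with DHA and 36.2 in control. The orphan receptor gene GPRC5A had 27.1 and 71.1 FPKM in the combination and with CCCP, against 35.5 with DHA and 32.3 in control. For OXTR and GPRC5A the log2 ratio of the combination to control was 0.03 and -0.25, so the difference seen with CCCP alone was absent when DHA was present.

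Actin and contractile genes that serum response factor controls were below the sum as a list, with 3 of 15 past 2-fold (20%, against 1.89% of all genes), 0 above 0 and a median of -0.55. The 3 became 2 with libraries at equal totals and 2 on the linear scale. TAGLN, the smooth muscle protein transgelin, had 57.7 FPKM in the combination, 74.8 with CCCP, 62.3 with DHA and 30.6 in control. TAGLN was at least 2-fold above control with each compound alone and the combination did not exceed them, so 2.64-fold (2.47 to 2.82) the observed level was expected. MYL9, a myosin light chain, had 24 FPKM in the combination, 61.1 with CCCP, 32 with DHA and 33.2 in control. MYH9, the non-muscle myosin heavy chain, had 253, 519, 311 and 301 FPKM in the same order, and its departure of -1.08 became -0.98 with libraries at equal totals. ACTB and ACTG1, the cytoplasmic actins, were at -0.88 and -0.86. TAGLN was at -0.88 when single effects were added on the linear FPKM scale, where large increases add to less.

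Genes of mitosis were low in the combination and near control with either compound alone. Of 26 genes on the mitosis list, 7 were below the sum by at least 2-fold (26.9%, against 1.89% of all genes), 0 were above 0, and the median was -0.83. The median log2 ratios to control were -1.19 in the combination, -0.12 with CCCP and -0.24 with DHA. The 7 were CENPF, CENPA, MKI67, CDK1, CCNA2, KIF20A and TOP2A. CDK1, the kinase that drives entry into mitosis, had 16.1 FPKM in the combination, 42.1 with CCCP, 34 with DHA and 37.4 in control. Its 3 other libraries were close together, and 2.38-fold (2.18 to 2.6) the observed level was expected. CENPA, the histone of the centromere, had 5.52 FPKM in the combination, 13.1 with CCCP, 11.2 with DHA and 10.6 in control. MKI67, the proliferation antigen Ki-67, had 8.47, 23.1, 24.4 and 27.5 FPKM in that order, and TOP2A, the DNA topoisomerase that untangles chromosomes, had 30.1, 76.4, 67 and 76.9 FPKM. KIF20A, a kinesin of the spindle midzone, was also lower with DHA alone (-0.67), and its departure was -1.17, or -0.98 on the linear scale. BUB3, a spindle checkpoint protein, was nearest to 0 at -0.16.

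The promoters of 4 of these genes are shown because their mRNAs departed together and because they carry the CHR and CCAAT letters. Each is the stretch of 250 bases before the transcription start in RefSeq (GRCh38.p14), 5′ to 3′ on the gene's strand. They are CDK1 at chr10:60778081-60778330 (+), CENPA at chr2:26785806-26786055 (+), TOP2A at chr17:40417897-40418146 (-) and MKI67 at chr10:128126424-128126673 (-). Capitals mark TTTGAA (CHR) and CCAAT on either strand.
CDK1: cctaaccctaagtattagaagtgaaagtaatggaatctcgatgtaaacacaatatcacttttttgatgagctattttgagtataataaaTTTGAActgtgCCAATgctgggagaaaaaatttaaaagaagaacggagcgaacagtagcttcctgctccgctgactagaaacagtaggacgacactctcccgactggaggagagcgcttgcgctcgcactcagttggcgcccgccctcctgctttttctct
CENPA: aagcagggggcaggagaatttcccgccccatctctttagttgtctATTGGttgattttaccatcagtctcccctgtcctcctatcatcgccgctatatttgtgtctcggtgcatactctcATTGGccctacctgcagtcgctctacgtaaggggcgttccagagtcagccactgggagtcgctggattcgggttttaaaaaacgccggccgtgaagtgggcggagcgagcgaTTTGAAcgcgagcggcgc
TOP2A: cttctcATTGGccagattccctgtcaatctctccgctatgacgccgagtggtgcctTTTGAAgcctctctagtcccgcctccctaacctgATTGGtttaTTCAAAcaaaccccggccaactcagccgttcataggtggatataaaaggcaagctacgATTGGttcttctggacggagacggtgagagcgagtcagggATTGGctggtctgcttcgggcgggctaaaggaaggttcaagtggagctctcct
MKI67: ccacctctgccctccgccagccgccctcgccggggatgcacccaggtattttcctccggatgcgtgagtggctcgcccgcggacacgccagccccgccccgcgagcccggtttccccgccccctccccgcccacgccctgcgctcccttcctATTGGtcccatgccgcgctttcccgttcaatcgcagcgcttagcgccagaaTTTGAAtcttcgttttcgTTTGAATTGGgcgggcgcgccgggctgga

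TTTGAA was present in 10 of 19 mitosis-list promoters in the RefSeq table (52.6%), in 17 of 74 promoters of genes below the sum (23.0%) and in 1 of 22 of genes above it (4.55%). It was present in 7.91% of the 5275 promoters of all genes measured and in 13.6% of all 27305 promoters in the table. CCAAT was present in 17 of the 19 mitosis promoters (89.5%), 55.4% of those below the sum, 36.4% of those above it and 35.6% of those of all genes measured. It was also in 16 of 27 promoters of the stress-response lists (59.3%), whose genes mostly had departures above 0. CCAAT was thus not particular to genes below the sum. TTTGAA and CCAAT occurred in the same window in 9 of the 19 (47.4%), in 21.6% of windows below the sum, in 0 of 22 above it and in 3.60% of all genes measured. TTTGAA and CCAAT are distinct in letters, though in MKI67 a match of each shares 1 base. In CENPA the TTTGAA match began 18 bases before the start, and in MKI67 there were matches 47 and 29 bases before it. That of CDK1 began 161 bases before the start, and those of TOP2A 194 and 151 bases. CDK1 had 2 windows, and only the first listed was read. TTTGAA and CCAAT were 2 of 11 letter patterns read. The core of the C/EBP-ATF response element, TGATGNAA, was in 0 of 22 windows above the sum, in 1 of 27 windows of the stress-response lists (3.70%) and in 1.16% of those of all genes measured. The E2F patterns TTTGGCGC and TTTCGCGC were each in 0 of the 19 mitosis windows, and in 0.910% and 0.872% of those of all genes measured. The hypoxia response element core, ACGTG, was in 7 of the 19 (36.8%), against 25.4% of all genes measured. A match of letters is not a binding site, absent letters say nothing of a factor, and its part in these levels was not tested.

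ANLN, the anillin scaffold of the cleavage furrow, had 18.1 FPKM in the combination, 58.1 with CCCP, 44.8 with DHA and 53.2 in control, and 2.7-fold (2.53 to 2.88) the observed level was expected. ASPM, a spindle pole protein, had 5.19, 14, 11 and 10.5 FPKM in that order. Both were named after their values were seen and stand for no list. FAM111B, a protease gene, was at -1.54. DNA replication genes departed less, with a median of -0.52 over 27 genes, 0 past 2-fold, and 26 of 27 below 0. With CCCP alone their median log2 ratio to control was already -0.52. RRM2, a ribonucleotide reductase subunit, was at -0.90. CDC6, which loads the replicative helicase, was the exception at 0.03, with 4.63 FPKM in the combination and 4.89 with CCCP, against 9.14 with DHA and 9.85 in control. Homologous recombination and checkpoint genes had a median of -0.49 over 7 genes, from -0.72 (EXO1, a nuclease) to -0.09 (CHEK1, a checkpoint kinase).

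Hypoxia genes lay on both sides of the sum. Of 21 genes, 2 were past 2-fold above it (VEGFA and DDIT4, described earlier; 9.52%, against 0.607% of all genes) and 2 below, CA9 and ADM (9.52%, against 1.89%), with a median of -0.11. VEGFA and DDIT4 are both counted on the stress-response lists as well, so the 2 genes above the sum are not a separate result. On the linear scale 1 hypoxia gene was below. CA9 at chr9:35673856-35681159, the surface carbonic anhydrase IX, had 2.15 FPKM in the combination, 17.1 with CCCP, 31.2 with DHA and 48 in control. CA9 was under control with either compound alone, and the combination was lower again than the product of those differences, 11.1 FPKM. On the linear FPKM scale the single losses left 0.245 FPKM, so there CA9 was above the expected level, a direction that turns with the scale. ADM, the vasodilator peptide adrenomedullin, had 4.78 FPKM in the combination, 11.4 with CCCP, 14.4 with DHA and 14.1 in control. Endothelin, encoded by EDN1, was at -1.18.

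The glycolytic genes, many of which hypoxia-inducible factors control, were close to the sum. Their median log2 ratio to control was -1.02 in the combination, -0.69 with CCCP and -0.07 with DHA, and their median departure was -0.19 over 21 genes. None of the 21 was past 2-fold, 5 were above 0, and they ran from -0.61 for the enolase gene ENO2 to 0.42 for the lactate transporter gene SLC16A1. LDHA, lactate dehydrogenase A, had 111 FPKM in the combination, 182 with CCCP, 362 with DHA and 443 in control, -0.42 from the sum. PFKFB3, which makes the activator of phosphofructokinase, was at 0.07, with 6.26 FPKM in the combination and 6.86 with CCCP.

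Further genes below the sum were lowest in the combination. LBH, a developmental transcription cofactor, had 10.3 FPKM in the combination, 46.4 with CCCP, 54.1 with DHA and 74.5 in control, and 3.28-fold (3.01 to 3.57) the observed level was expected. CAVIN2, a coat protein of caveolae, had 3.32, 15.3, 12.2 and 13.4 FPKM in that order. NPPB, the precursor gene of a natriuretic peptide, had 1.75 FPKM in the combination, 11 with CCCP, 10.8 with DHA and 7.7 in control, from 21, 127, 129 and 104 reads. PLK2, a p53 target and kinase of the centrosome, was at -1.24, while the p53 list had a median of 0.17 over the 19 of its 25 genes that were measured. TNFRSF10B, death receptor 5, was at 0.91.

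mRNAs of the mitochondrial genome were below the sum by a median of -0.57 over 13 genes. MT-CO1 and MT-CO2, subunits of complex IV, and MT-ND5 and MT-ND6, subunits of complex I, were just past 2-fold (30.8% of the 13, against 1.89% of all genes) at -1.01, -1.0, -1.11 and -1.09. MT-CO2 had 3164 FPKM in the combination, 6157 with CCCP, 6372 with DHA and 6187 in control, so only the combination stood apart. The 4 calls became 1 with libraries rescaled to equal totals and 0 with the exon-length trend removed, where the list's median was -0.42. MT-ND1 (0.48) and MT-ND2 (0.67) lay above the sum, so transcripts of one genome departed in both directions. MT-ND2 had 1651 FPKM in the combination, 1024 with CCCP, 1492 with DHA and 1467 in control. Mitochondrial genes held 3.85% of reads in the combination, 5.09% with CCCP, 5.18% with DHA and 4.80% in control. Nuclear genes of oxidative phosphorylation had a median of -0.24, and 3 of 66 were above 0.

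Noncoding genes made up 12 of the 41 genes above the sum and 33 of the 128 below it, out of 358 measured. These were 3.35% and 9.22% of noncoding genes, against 0.607% and 1.89% of all genes. Of the 41 and the 128 genes, 9 and 13 had under 100 reads over the 4 libraries, against 49 of all 6760 genes. AC004057.1, a transcribed processed pseudogene, had the lowest departure on the log scale, -4.65, with 33.6 FPKM in the combination, 149 with CCCP, 119 with DHA and 20.3 in control. RN7SL2, an RNA of the signal recognition particle, had 100.4 FPKM in the combination, 152 with CCCP, 165 with DHA and 26.5 in control, a departure of -3.21. In both, each compound alone stood several-fold above control and the combination did not stack the 2 increases. With single effects added on the linear scale AC004057.1 was at -2.86, behind IGFBP5 at -3.38 and CEMIP and MT-TG, both at -2.91. RN7SL2 was at -1.53 on that scale. RPL7AP6, a ribosomal protein pseudogene, had the same shape at -1.89.

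Reads of pseudogenes and of near-identical copies can be split with their parent genes, and the kit is not known to mark strand, so these levels and those of the antisense genes AC090109.1 (-2.73) and PGM5-AS1 (-1.66) are uncertain. Nuclear copies of mitochondrial genes, MTATP6P1 (-1.2) and MTCO1P12 (-1.34), were below the sum, as was MT-CO1. The mitochondrial tRNA genes MT-TG and MT-TR had 5, 46, 24 and 34 and 4, 26, 31 and 47 reads in the combination, with CCCP, with DHA and in control. Under 100 reads, RNU1-106P, a U1 small nuclear RNA copy, was highest at 2.83 from 20, 1, 20 and 18 reads in that order, counts too few to bound its fold closely. RNU6-1016P was lowest there at -3.07, with 0 reads in control, so no fold is given.

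Departure varied with gene length. The 25% of genes with the shortest exon length (up to 2933 bases) had a median of -0.12, and the longest 25% had 0.02. The shortest 25% held 69 of the 128 genes below the sum and 23 of the 41 above it. Protein-coding genes held 97.0% of reads in the combination, 97.2% with CCCP, 97.5% with DHA and 97.7% in control. The part of RNA quality or library preparation in this trend was not tested. Mitosis genes kept a median of -0.80, and ATF4 and CHOP factors 0.81, with the length trend removed. Short genes of the cytosolic ribosome, which had a median of -0.22 over 71 genes with 0 past 2-fold, were at -0.17 with it removed.

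Some large effects met the sum. Of 494 genes that differed by at least 2-fold between the combination and control, 199 (40.3%) lay within 0.5 of the sum, against 83.6% of all genes, and 410 (83.0%) within 1, against 97.5%. Their median departure was 0.32 where the combination was higher than control and -0.66 where it was lower. The departure holds the combination level itself, so these shares are a description only. CYP1A1, the cytochrome that aryl hydrocarbon receptor ligands induce, had 49.8 FPKM in the combination, 76.5 with CCCP, 0.726 with DHA and 1.03 in control, a departure of -0.29. SERPINB2, an inhibitor of plasminogen activators, had 75.7 FPKM in the combination, 35.4 with CCCP, 5.85 with DHA and 2.82 in control, a departure of 0.15. For CYP1A1 nearly all of the effect came from CCCP, with or without DHA. KRT34, a hair keratin, had 669 FPKM in the combination, 129.9 with CCCP, 156 with DHA and 32.9 in control. KRT34 was several-fold above control with each compound alone, and the combination reached 1.09-fold (1.01 to 1.17) their product, 615 FPKM, whereas adding the differences in FPKM would give 253. NQO1, a quinone reductase and NRF2 target, was at 0.06.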

How the data were processed

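RNA was sequenced in 4 libraries, 1 per group, each prepared with an Illumina TruSeq RNA kit per the labels' protocols. The authors deposited FPKM per gene, per the file headers; the sources used here do not name an aligner, a counting tool or a genome build. Identifiers of all 58735 genes matched GENCODE 29 (GRCh38), the source of gene types, lengths and coordinates. FPKM times exon length gave whole reads for 100% of genes above 0 (tolerance 0.01 reads), with 16900411 to 18937286 reads per library. FPKM already carried median-of-ratios scaling (1.00693 in every library) and were used as deposited. No test was possible with 1 library per group. Intervals are conditional exact 95% intervals of the 2 by 2 table of reads, checked on simulated data.

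The genes, the 42 gene lists and the tests were chosen with earlier results of these data known. Named genes were the 15 highest and 15 lowest departures with at least 100 reads over the 4 libraries, the 3 highest and lowest under 100 reads, up to 5 per list (more from the stress, cell cycle, glycolysis, hypoxia and cytokine lists), up to 5 called per class of single effects, and up to 5 beside each threshold. OXTR, GPRC5A, ANLN, ASPM, IDH2, SERPINB2, KRT34, BUB3, CDKN2D, ACKR3, MTATP6P1, MTCO1P12, IFI6 and the genes listed for their opposite CCCP effects were named after their values were seen where they fall outside this rule. Promoters were the RefSeq (GRCh38.p14) windows listed first per gene, matched for 5275 of 6760 genes, and motifs were read on both strands. Alternatives were pseudocounts of 0.1 and 1, other minimum levels, equal totals, a linear scale, centring, other size rules, protein-coding genes or genes with at least 100 reads alone and another limit for near control. Subtracting the median departure of each of 20 exon-length bins, and calls with intervals excluding 1, were chosen after seeing the data. Tools were Python 3.11.15 with numpy 2.4.6, pandas 2.3.3 and matplotlib 3.10.9, and R 4.3.3.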

Additional observations from a re-analysis of the deposited data

How the results depend on the processing

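The counts of genes at least 2-fold above and below the sum were 239 and 351 with a minimum mean of 1 FPKM, 24 and 85 with a minimum of 10, and 1042 and 1067 with no minimum, against 41 and 128. With a size rule of 1.5-fold they were 253 and 527, and with 4-fold 4 and 12. On the linear scale, where FPKM differences rather than ratios are added, 72 were above and 112 below, and 37 of the 41 and 103 of the 128 were called there too. CA9 turned to 1.831 above on that scale, because its expected linear level is close to 0. Genes below the sum with both single effects near control numbered 60, and 32 when near meant within 0.3. All other counts stayed within 1.5 times: 49 and 148 with a pseudocount of 0.1, 37 and 112 with 1, 59 and 94 at equal totals, 48 and 118 when centred on the median, 57 and 102 without the exon-length trend, 29 and 95 among protein-coding genes, 32 and 115 with at least 100 reads, and 35 and 119 with counting intervals that excluded 1. At equal totals the median departure was 0.07, against -0.03 as deposited. Of 59 named genes past 2-fold, 55 remained so at equal totals, 54 without the length trend and 52 on the linear scale. The median of the iron and heme list, near 0, changed sign under 7 of the settings for which it was computed. With 1 library per group no library could be left out, since the departure needs all 4. No paired analysis was possible because each group has a single library. Depth limits genes under 100 reads, which gave 9 of the 41 genes above and 13 of the 128 below.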

Other observations

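Retinoid and matrix genes appeared among those below the sum outside the lists, and were named after their values were seen. CRABP2, a carrier of retinoic acid, had a departure of -1.31, ALDH1A3, which makes retinoic acid, -1.14, and DHRS3, which reduces retinal to retinol, -1.17. SPARC, a secreted collagen-binding protein, was at -1.17, with 63.6 FPKM in the combination, 201 with CCCP, 151 with DHA and 211 in control. BMP4, a ligand of the TGF-beta family, had 5.49 FPKM in the combination, 15.8 with CCCP, 15.6 with DHA and 19.1 in control. COL5A2 and COL8A1, both collagens, were also past 2-fold below the sum. These genes were picked from those below the sum and stand for no list. Other retinoid and matrix genes that were measured, on either side of the sum, were not counted. No test was run on these genes as groups.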
